A study of Mus musculus with 9 samples.

Results

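Collagens are trimeric proteins of the extracellular matrix, and each gene of the family encodes 1 of the chains that wind into a triple helix. The members described here are the protein-coding genes whose symbol has the form Col, number, a, number, and the deposited table holds 44 of them among 35275 genes. They were sorted by the kind of assembly their chains build, as 11 fibrillar chains, 6 basement membrane chains of type IV and 27 chains of other types. Fibrillar collagens give tissue its tensile strength, type IV collagens form the sheet under epithelia, and the other types cover fibril surfaces, anchor fibrils, form beaded filaments or span the plasma membrane. Embryonic fibroblasts are a classic source of fibrillar and type VI collagen, and the chains need hydroxylation, chaperoning and export from the endoplasmic reticulum (ER) before they are cut and crosslinked outside the cell.

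Poly(A)-selected RNA was sequenced from mouse embryonic fibroblasts (MEFs) of the C57Bl/6 strain, wild type and kept as a line in the laboratory. The 3 conditions were the iso-osmolar control, medium brought to 500 mOsm with 200 mM sucrose and medium brought to 600 mOsm with 300 mM sucrose, with 3 libraries each and stress lasting 3 h. The comparisons ask how collagen transcripts differ under mild (500 mOsm) and severe (600 mOsm) hyperosmotic stress. No source used here says that the libraries came from separate cultures, so the p-values measure the spread between these libraries, which may be technical.

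The libraries held 21716042 to 26740832 counts. The fibroblast markers Vim, S100a4 and Pdgfrb were present throughout, and the summed level of all 7 fibroblast markers, led by Vim and S100a4, was 2868 to 3252 FPKM (fragments scaled to transcript length and library size, a level per length). The markers of that list went both ways under stress. Pdgfra fell by 0.70 and 0.68 on the log2 scale at 500 and 600 mOsm (edgeR adjusted p = 3.21e-05 and 4.72e-05). Prrx1 fell by 0.63 and 0.91 (adjusted p = 1.97e-05 and 1.10e-06) and Twist1 by 0.68 at 600 mOsm (adjusted p = 0.00560). Pdgfrb rose by 0.17 and 0.29 (adjusted p = 0.00692 and 1.57e-04) and S100a4 by 0.39 at 600 mOsm (adjusted p = 2.42e-04). Vim and Thy1 were not called against iso-osmolar. Genes with at least 1 count numbered 16452 to 16871 in iso-osmolar, 18920 to 19222 at 500 mOsm and 17846 to 18031 at 600 mOsm libraries. The noncoding gene Gm26917 took 0.170 to 0.243% of the counts in iso-osmolar libraries, 0.294 to 0.514% at 500 mOsm and 0.641 to 1.28% at 600 mOsm, and 600 mOsm library 3 stood apart with the highest share. Leaving that gene out of the library totals changed no call for any of the 24 collagen genes tested.

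The repeat that defines the family can be read from the genes. The glycine that opens each Gly-X-Y triplet lets 3 chains pack around one axis, and fibrillar genes carry this repeat in many short exons. In GENCODE M21, the mouse annotation on GRCm38 (mm10), 21 of the 51 coding exons of Col1a1 are 54 bases long, against 24 of 52 in Col1a2, 24 of 51 in Col3a1, 6 of 118 in Col7a1 and 2 of 52 in Col4a1. One such coding exon each, from the plus strand of GRCm38 with the glycine codons in capitals, is shown for both type I chains and for the chains of types III and VII, whose levels moved differently under stress. They are exon 8 of Col1a1 at chr11:94939904-94939957, exon 8 of Col1a2 at chr6:4515481-4515534, exon 6 of Col3a1 at chr1:45325360-45325413 and exon 48 of Col7a1 at chr9:108967172-108967225.
Col1a1: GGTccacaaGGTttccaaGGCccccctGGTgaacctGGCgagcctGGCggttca
Col1a2: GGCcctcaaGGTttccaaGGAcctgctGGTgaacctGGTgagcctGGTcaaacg
Col3a1: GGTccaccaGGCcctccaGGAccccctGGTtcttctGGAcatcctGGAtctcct
Col7a1: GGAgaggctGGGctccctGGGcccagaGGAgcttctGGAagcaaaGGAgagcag
Each exon opens with a glycine codon and holds 6 of them in the same frame.

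Type I collagen took most of the collagen read counts. Read counts also grow with transcript length, so these are not shares of transcripts. The share of counts on the 44 collagen genes was 1.77% ± 0.06 (SD, n = 3) in iso-osmolar cells, 1.70% ± 0.07 at 500 mOsm and 2.06% ± 0.09 at 600 mOsm. Col1a1 ranked 1 or 2 among all genes by counts in every library, and the type I chains made up 67.6 to 72.5% of collagen counts. The share in the 600 mOsm libraries, 1.98 to 2.15%, lay above all others, which ran from 1.63 to 1.83%. The exact two-sided permutation test gave p = 0.1 for 600 mOsm against each other condition, the smallest value that 3 against 3 libraries allow, and p = 0.3 for 500 mOsm against iso-osmolar.

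**Figure D1:**
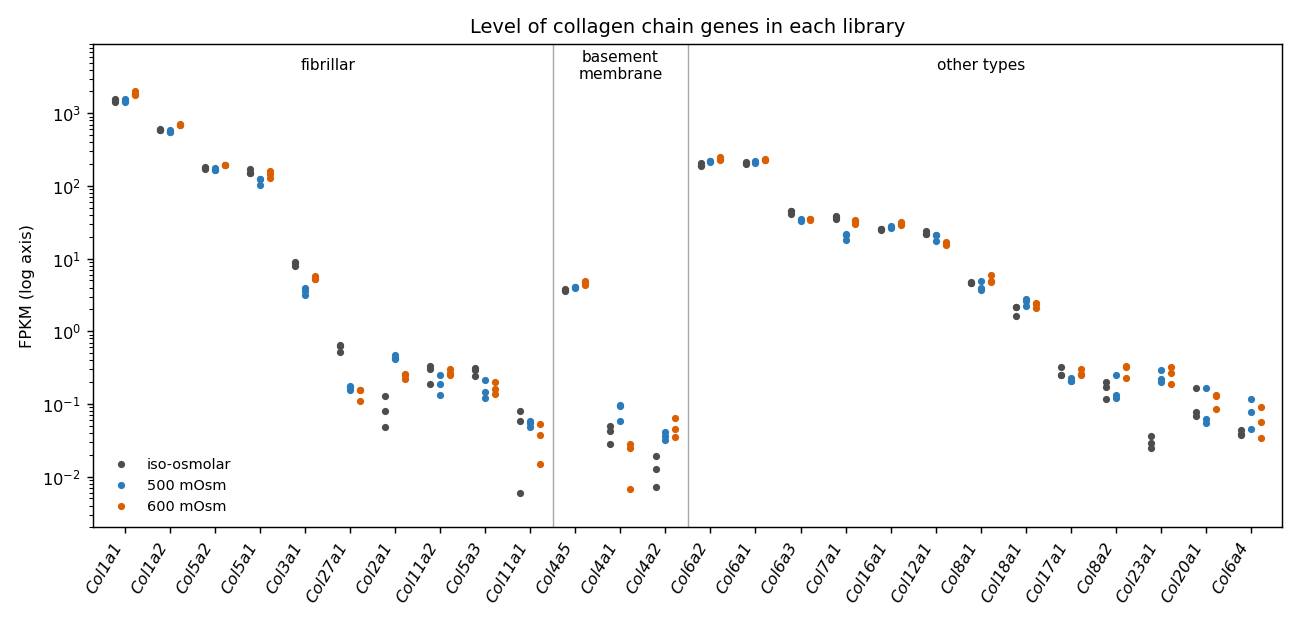
Level in FPKM (log axis) of the 24 collagen genes tested and of Col4a1 and Col4a2, 1 point per library, coloured by condition and ordered by class and mean level. Levels span from 1515 FPKM on average in iso-osmolar cells for Col1a1 to below 0.1 FPKM, and Col4a5 is the only type IV chain above 1 FPKM.

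Of the 44 collagen genes, 24 passed the filter on low counts, made up of 10 fibrillar chains, the type IV chain Col4a5 and 13 chains of other types. At 500 mOsm against iso-osmolar, 3 members were higher (13.2% of all 13082 genes tested were) and 6 were lower (14.8% of all genes). At 600 mOsm against iso-osmolar, 9 were higher (15.1% of all genes) and 5 lower (20%). Col2a1 and Col23a1 are among the 3 and among the 9. Both met the low count filter only through their stressed libraries, so they were tested only because they were higher there. Between the stress levels, 10 members were higher at 600 than at 500 mOsm (11.9% of all genes) and 2 were lower (17.2%). The 10 became 6 without 500 mOsm library 3, 600 mOsm library 1 or 600 mOsm library 3. These calls are edgeR quasi-likelihood tests with Benjamini-Hochberg adjustment over all genes tested, at a threshold of 0.05. The median log2 fold change of the 24 members was -0.05, 0.18 and 0.18 in the order of these comparisons, beside 0.01, 0.01 and 0.01 over all genes.

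Abundant genes are called more often in some comparisons, so the members were also read against genes of like abundance. Among the 11 members with an average log2 CPM (counts scaled to library size) of at least 5, 8 were higher at 600 than at 500 mOsm, where 15.9% of the 5085 genes at that abundance were. The 1 that was lower there, Col12a1, compares with 20.1% of such genes. Against iso-osmolar, 6 of the 11 were higher (20.6% of such genes) and 3 lower (25.9%) at 600 mOsm, and 1 was higher (11.1%) and 4 were lower (14.7%) at 500 mOsm. In all, 17 of the 24 members passed the test in at least 1 comparison, as did 51.0% of all genes tested. Both stress comparisons share the iso-osmolar libraries, so they are not independent of each other. Offsets for GC content and length, chosen after seeing the data, moved the split of all called genes from 1728 higher and 1931 lower to 2660 and 1952 at 500 mOsm, and from 1977 and 2617 to 2863 and 2281 at 600 mOsm. With it, members higher at 500 mOsm rose from 3 to 6 and members lower at 600 mOsm went from 5 to 2.

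**Figure D2:**
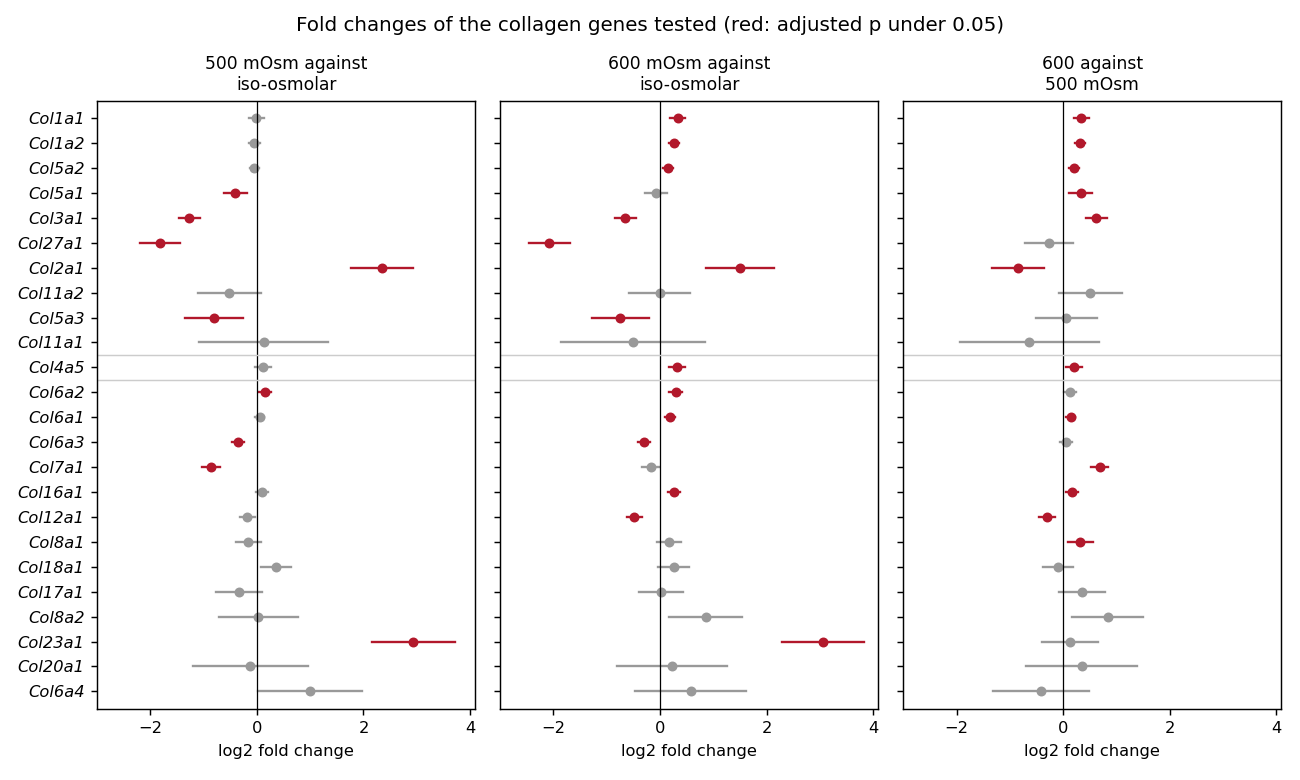
Log2 fold change with its 95% confidence interval for each collagen gene tested, in 3 comparisons, from the edgeR fit. Red points passed the adjusted threshold. Type I chains sit at 0 at 500 mOsm and to the right at 600 mOsm, while Col3a1 and Col27a1 sit to the left in both.

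Type I collagen, the main fibril former of skin, tendon and bone, was level at 500 mOsm and higher at 600 mOsm. Col1a1 (chr11:94936224-94953042), which encodes the α1 chain, stood at 1431, 1579 and 1533 FPKM in the iso-osmolar libraries, 1567, 1499 and 1428 at 500 mOsm and 1848, 1781 and 2006 at 600 mOsm. All 3 libraries at 600 mOsm lay above the other 6. Its log2 fold change at 600 mOsm was 0.33 ± 0.06 (SE; adjusted p = 0.00163) against iso-osmolar and 0.34 ± 0.06 (adjusted p = 0.00142) against 500 mOsm, while that at 500 mOsm was -0.01 ± 0.06 (adjusted p = 0.911). Col1a2 (chr6:4504814-4541544), the α2 chain, read 583, 599 and 580 FPKM in iso-osmolar, 593, 557 and 553 at 500 mOsm and 705, 692 and 691 at 600 mOsm libraries. Again the 600 mOsm libraries did not overlap with the others. Its log2 fold change at 600 mOsm was 0.26 ± 0.04 (adjusted p = 5.38e-04) against iso-osmolar and 0.31 ± 0.04 (adjusted p = 1.76e-04) against 500 mOsm, while that at 500 mOsm was -0.05 ± 0.04 (adjusted p = 0.490). Both chains kept their calls at 600 mOsm under every alternative run on single genes, and the GC content and length correction took Col1a2 to 0.40 against iso-osmolar.

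Type I collagen is a trimer of α1 and α2 chains, and the level of Col1a1 over that of Col1a2 was 2.58 ± 0.11 (SD, n = 3) in iso-osmolar cells, 2.64 ± 0.06 at 500 mOsm and 2.70 ± 0.18 at 600 mOsm. These FPKM ratios overlapped between conditions, and the exact permutation test gave p = 0.6, 0.6 and 0.9.

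Type V collagen is built into type I fibrils and limits their diameter, and its 3 genes did not all move alike. Col5a2 followed type I at a smaller scale, with 180, 173 and 175 FPKM in iso-osmolar, 177, 166 and 166 at 500 mOsm and 195, 192 and 192 at 600 mOsm libraries. Its log2 fold change was 0.16 ± 0.04 (adjusted p = 0.0118) at 600 mOsm against iso-osmolar and 0.20 ± 0.04 (adjusted p = 0.00264) against 500 mOsm. With the GC content and length correction these became 0.40 and 0.38.

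Col5a1 was lower at 500 mOsm alone. It read 150, 169 and 151 FPKM in iso-osmolar, 125, 125 and 103 at 500 mOsm and 146, 130 and 163 at 600 mOsm libraries, so the 500 mOsm values lay below all others. The log2 fold change at 500 mOsm was -0.41 ± 0.10 (adjusted p = 0.00756) and that of 600 against 500 mOsm was 0.33 ± 0.10 (adjusted p = 0.0242), while 600 mOsm against iso-osmolar gave -0.08 ± 0.10 (adjusted p = 0.585). The call between 500 and 600 mOsm was lost without 500 mOsm library 3 (log2 fold change 0.23), 600 mOsm library 1 (0.33) or 600 mOsm library 3 (0.23), and the GC content and length correction took the value to 0.51. The antisense genes 2810430I11Rik and Gm13372 share 212 exonic bases with Col5a1, and reads there cannot be assigned without strand.

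Col5a3, the scarce remaining chain, had 41, 37 and 44 counts in iso-osmolar, 22, 35 and 19 at 500 mOsm and 30, 22 and 22 at 600 mOsm libraries. It was lower in both stress conditions, by -0.81 ± 0.25 (log2; adjusted p = 0.0272) and -0.74 ± 0.25 (adjusted p = 0.0344). DESeq2 gave adjusted p = 0.0659 and 0.0841 for the same comparisons, and the calls also failed without either iso-osmolar library 1 (log2 fold change -0.75 and -0.69) or library 3 (-0.78 and -0.71), without 500 mOsm library 1 (-0.75) or 3 (-0.62), and without 600 mOsm library 2 (-0.72) or 3 (-0.62). With the GC content and length correction the 600 mOsm value was -0.60 (adjusted p = 0.0725), and on the log2(FPKM + 1) scale the fold changes were -0.15 and -0.14.

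The ratio of Col5a1 to Col5a2 fell outside the iso-osmolar range at 500 mOsm. It was 0.892 ± 0.074 (SD, n = 3) in iso-osmolar cells, 0.696 ± 0.069 at 500 mOsm (exact permutation p = 0.1, the smallest possible) and 0.759 ± 0.086 at 600 mOsm (p = 0.2). The 600 mOsm ratios overlapped with both other groups.

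Type III collagen, which forms thin fibrils in skin, vessels and healing wounds, moved opposite to type I at 600 mOsm. Col3a1 (chr1:45311538-45349706) had 8.76, 9.08 and 7.86 FPKM in iso-osmolar, 3.90, 3.13 and 3.61 at 500 mOsm and 5.24, 5.23 and 5.69 at 600 mOsm libraries. The 3 conditions did not overlap, and the lowest level was at 500 mOsm. Log2 fold changes were -1.27 ± 0.09 (adjusted p = 4.21e-07) at 500 mOsm, -0.65 ± 0.09 (adjusted p = 1.24e-04) at 600 mOsm and 0.62 ± 0.09 (adjusted p = 2.54e-04) for 600 against 500 mOsm. Col3a1 and Col2a1 were the 2 members called in all 3 comparisons. Gm47302 shares 141 exonic bases with Col3a1 on the same strand.

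Col3a1 lies tail to tail with Col5a2 on chromosome 1, on the opposite strand, and its neighbour did not share its pattern. The level of Col3a1 over that of Col5a2 was 0.0488 ± 0.0037 (SD, n = 3) in iso-osmolar, 0.0209 ± 0.0017 at 500 mOsm and 0.0279 ± 0.0015 at 600 mOsm cells. No ratio overlapped between conditions, and each exact permutation test gave 0.1, the smallest possible p.

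Among the scarce fibrillar chains, Col27a1 and Col2a1 changed most and in opposite directions. Col27a1, a chain of developing cartilage, had 86, 121 and 115 counts in iso-osmolar, 33, 35 and 31 at 500 mOsm and 29, 26 and 22 at 600 mOsm libraries. Every stressed library fell below every iso-osmolar one. The log2 fold change was -1.82 ± 0.17 at 500 mOsm (adjusted p = 5.10e-06) and -2.08 ± 0.18 at 600 mOsm (adjusted p = 2.72e-06). Between the stress levels the difference was -0.26 ± 0.21 (adjusted p = 0.392), with a 95% interval of -0.72 to 0.19. On the log2(FPKM + 1) scale, which shrinks changes of low genes, the fold changes were -0.45 and -0.49.

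Col2a1, the main collagen of cartilage, is printed by library although its average fell under the level set for full values, a choice made after its values were seen. It had 9, 16 and 6 counts in iso-osmolar, 53, 57 and 63 at 500 mOsm and 27, 28 and 35 at 600 mOsm libraries, with no overlap between conditions. Its iso-osmolar counts alone would not have met the low count filter. Log2 fold changes were 2.34 ± 0.27 (adjusted p = 2.58e-05) and 1.50 ± 0.29 (adjusted p = 0.00182) against iso-osmolar, and -0.84 ± 0.22 (adjusted p = 0.0127) for 600 against 500 mOsm, which without 600 mOsm library 1 was -0.77 (adjusted p = 0.0552). On the log2(FPKM + 1) scale the 3 values were 0.41, 0.19 and -0.21. Even at 500 mOsm its level was 0.440 ± 0.032 FPKM (SD, n = 3), far under that of the type I genes. The chondrocyte marker Sox9 stood at 30.8 to 34.4 FPKM in iso-osmolar, 50.1 to 54.0 at 500 mOsm and 19.4 to 23.8 at 600 mOsm libraries. Against iso-osmolar, Sox9 was higher at 500 mOsm (log2 fold change 0.69, edgeR adjusted p = 3.00e-05) and lower at 600 mOsm (-0.58, adjusted p = 1.59e-04). Acan stood at 19.5 to 24.7 FPKM in all libraries. It was lower at 500 mOsm (-0.23, adjusted p = 0.00552), where Col2a1 was higher, and not called at 600 mOsm (-0.10, adjusted p = 0.192). Matn1 stood at 0 to 0.0386 FPKM. The summed level of the 4 chondrocyte markers, nearly all from Sox9 and Acan, was 53.5 to 59.1, 69.9 to 73.8 and 40.9 to 45.6 FPKM. Its part in the Col2a1 result was not tested.

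Of the remaining fibrillar chains, Col11a1 and Col11a2, the type XI chains of cartilage fibrils, passed no test, with 1 to 15 and 21 to 50 counts per library. Col24a1 was not tested, with 7 and 1 counts in 2 libraries at 500 mOsm and none in the other 7.

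**Figure D3:**
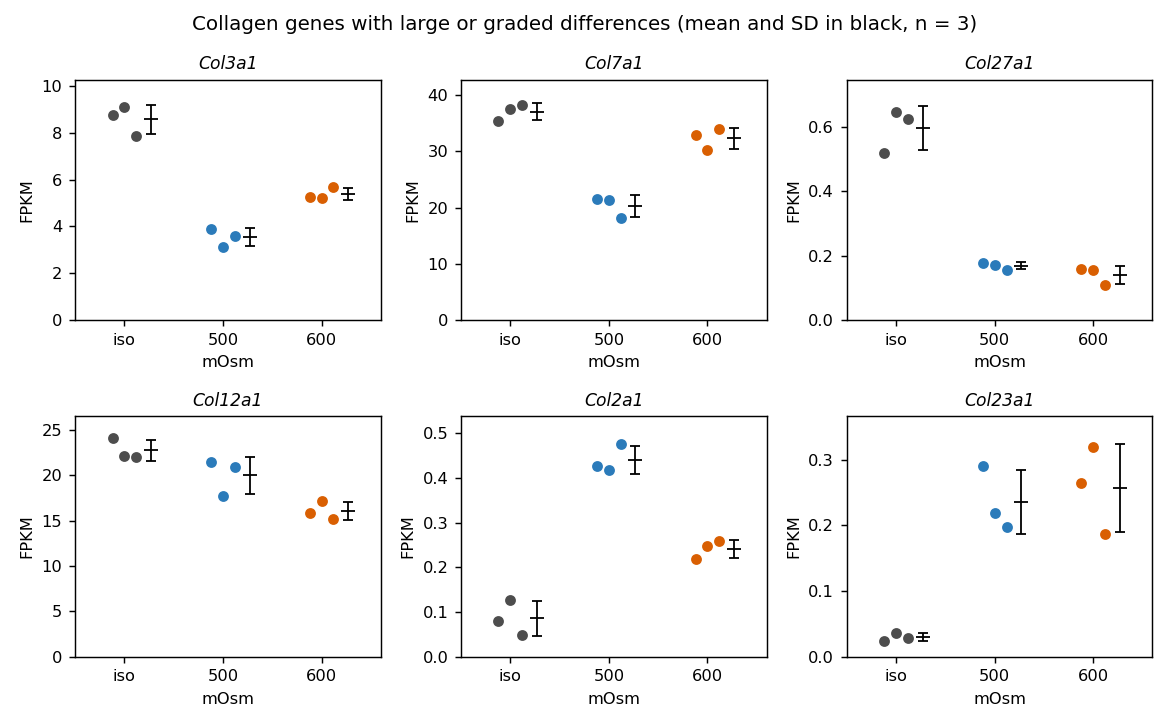
FPKM in each library for 6 collagen genes, with the mean and SD of 3 libraries in black and axes starting at 0. Col3a1 and Col7a1 are lowest at 500 mOsm, Col27a1 is low in both stress conditions, Col12a1 is lowest at 600 mOsm, Col2a1 is highest at 500 mOsm and Col23a1 is near 0 in iso-osmolar libraries alone.

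Basement membrane collagen was almost silent in these cells apart from Col4a5, an α5 chain of type IV. Col4a5 (chrX:141475385-141689234) read 3.87, 3.67 and 3.62 FPKM in iso-osmolar, 4.05, 4.13 and 3.91 at 500 mOsm and 4.86, 4.64 and 4.28 at 600 mOsm libraries. The conditions did not overlap, and the log2 fold change at 600 mOsm against iso-osmolar was 0.32 ± 0.07 (adjusted p = 0.00333). The difference between 600 and 500 mOsm, 0.21 ± 0.07 (adjusted p = 0.0413), did not keep its call under DESeq2 (adjusted p = 0.0546) or limma on log2(FPKM + 1) (adjusted p = 0.128). It was also lost without iso-osmolar library 2 or 3, without 500 mOsm library 1 or 3 and without 600 mOsm library 1 or 2, at log2 fold changes of 0.16 to 0.21. With the GC content and length correction, the fold changes were 0.55 at 600 mOsm against iso-osmolar and 0.37 between the stress levels.

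Col4a1 and Col4a2, which form the common type IV network, had 1 to 17 and 1 to 11 counts per library and were not tested. Col4a1 counts were 4, 7 and 8 in iso-osmolar, 15, 17 and 10 at 500 mOsm and 4, 1 and 5 at 600 mOsm libraries. For Col4a2 they were 1, 2 and 3, then 5, 7 and 6, then 7, 5 and 11. These paired genes share a head-to-head start and 22 exonic bases on opposite strands. Col4a3, Col4a4 and Col4a6 had at most 6 counts in any library.

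Type VI collagen, which forms beaded filaments around cells, split between its short and its long chain. Col6a2, a short chain, had 194, 206 and 191 FPKM in iso-osmolar, 220, 223 and 214 at 500 mOsm and 235, 230 and 249 at 600 mOsm libraries. The groups did not overlap, and the log2 fold change was 0.29 ± 0.05 (adjusted p = 0.00118) at 600 mOsm. At 500 mOsm it was 0.16 ± 0.05 (adjusted p = 0.0464), a call that DESeq2 did not make (adjusted p = 0.0559) and that was lost without iso-osmolar library 1 or 3, 500 mOsm library 1 or 2, or 600 mOsm library 1, at 0.12 to 0.15. Col6a1, the other short chain, had 206, 211 and 199, then 213, 207 and 217, then 231, 234 and 229 FPKM, and its log2 fold change was 0.19 ± 0.04 (adjusted p = 0.00347) at 600 mOsm and 0.05 ± 0.04 (adjusted p = 0.426) at 500 mOsm. For 600 against 500 mOsm it was 0.14 ± 0.04 (adjusted p = 0.0218), a call lost without 500 mOsm library 2 or 600 mOsm library 1 or 3, at 0.14 each, and when those 2 groups were fitted alone (adjusted p = 0.0541).

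Col6a3, the long chain, went down in both stress conditions. It read 45.0, 44.9 and 40.6 FPKM in iso-osmolar, 33.0, 33.6 and 35.7 at 500 mOsm and 34.5, 35.5 and 34.6 at 600 mOsm libraries, so every stressed library lay below the iso-osmolar ones. Log2 fold changes were -0.35 ± 0.05 (adjusted p = 1.90e-04) and -0.30 ± 0.05 (adjusted p = 6.47e-04). With the GC content and length correction the value at 600 mOsm was -0.03 (adjusted p = 0.807), and at 500 mOsm it was -0.31, still called. The same correction gave 0.28 for 600 against 500 mOsm (adjusted p = 0.00817), where the fold change was otherwise 0.05 ± 0.05 (adjusted p = 0.511). Col6a4, a type VI chain at 6 to 23 counts per library, passed no test, and Col6a5 and Col6a6 had at most 5 counts in any library.

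The ratio of Col6a3 to Col6a1 dropped from 0.212 ± 0.008 (SD, n = 3) in iso-osmolar cells to 0.161 ± 0.005 at 500 mOsm and 0.151 ± 0.001 at 600 mOsm, with no overlap between conditions. The FPKM used here carry no correction for GC content and length. That correction took Col6a3 at 600 mOsm against iso-osmolar to a log2 fold change of -0.03. Col6a1 over Col6a2 changed less, from 1.04 ± 0.02 to 0.970 ± 0.047 and 0.975 ± 0.050. The exact permutation test gave p = 0.1, the smallest possible, for each of these ratios against iso-osmolar.

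**Figure D4:**
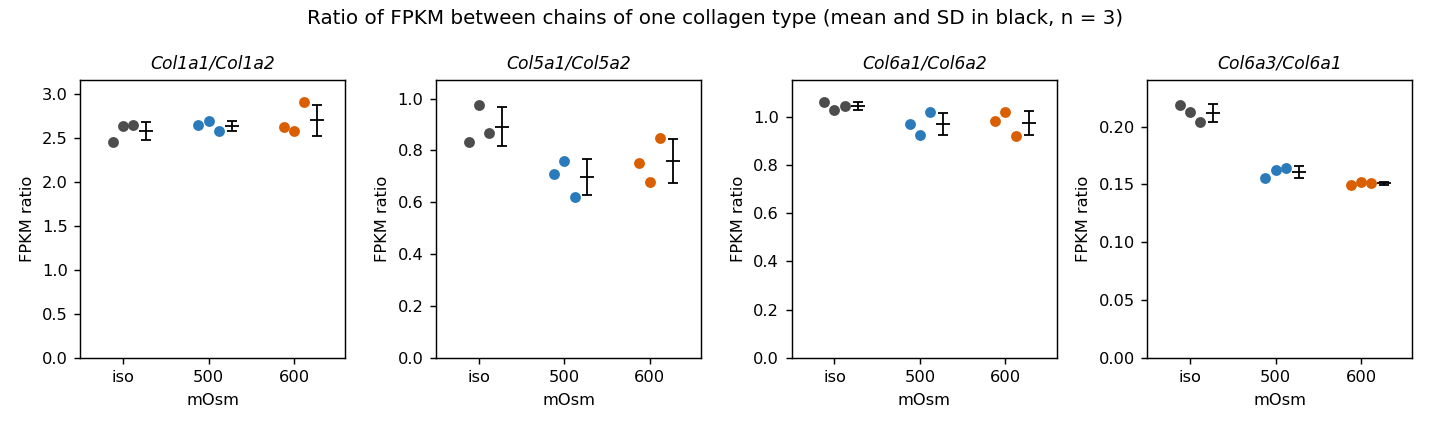
FPKM ratio between chains of types I, V and VI in each library, with the mean and SD of 3 libraries in black and axes starting at 0. The Col1a1/Col1a2 ratios overlap in all conditions, and every stressed library lies below the iso-osmolar ones for Col6a3/Col6a1.

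Type VII collagen, which forms the anchoring fibrils under the epidermis, responded to the mild stress more than to the severe one. Col7a1 (chr9:108953586-108984875) had 35.5, 37.5 and 38.3 FPKM in iso-osmolar, 21.5, 21.4 and 18.1 at 500 mOsm and 32.9, 30.3 and 33.9 at 600 mOsm libraries. All 3 libraries at 500 mOsm lay far below the others. The log2 fold change was -0.86 ± 0.08 (adjusted p = 2.51e-06) at 500 mOsm, -0.18 ± 0.07 (adjusted p = 0.0844) at 600 mOsm and 0.69 ± 0.08 (adjusted p = 2.31e-05) for 600 against 500 mOsm. The last of these is the test of the difference between the stress levels. Scaling by library size alone gave the 600 mOsm value a call (-0.20, adjusted p = 0.0381), and the GC content and length correction turned it to 0.04. Mir711 lies in the gene and shares 36 exonic bases with it.

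The FACIT collagens sit on fibril surfaces, and the measured ones diverged. Col12a1, found on type I fibrils of tendon and dermis, had 24.0, 22.1 and 22 FPKM in iso-osmolar, 21.4, 17.7 and 20.9 at 500 mOsm and 15.8, 17.2 and 15.2 at 600 mOsm libraries. It was lowest at 600 mOsm without overlap, at -0.48 ± 0.07 (log2; adjusted p = 1.40e-04) against iso-osmolar and -0.30 ± 0.07 (adjusted p = 0.00469) against 500 mOsm. The correction for GC content and length took these to -0.14 (adjusted p = 0.0734) and -0.01 (adjusted p = 0.928). At 500 mOsm against iso-osmolar the fold change was -0.18 ± 0.07 (adjusted p = 0.0585). It was called only by DESeq2 (adjusted p = 0.0483), with no filter on low counts (adjusted p = 0.00972) and without 500 mOsm library 1 (-0.23, adjusted p = 0.0307).

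Col16a1, another fibril-associated chain, read 25.2, 25.9 and 25.7 FPKM in iso-osmolar, 27.5, 28.1 and 26.3 at 500 mOsm and 30.0, 29.3 and 31.5 at 600 mOsm libraries. Its log2 fold change was 0.26 ± 0.05 (adjusted p = 0.00223) at 600 mOsm against iso-osmolar. That of 600 against 500 mOsm, 0.17 ± 0.05 (adjusted p = 0.0342), lost its call without 500 mOsm library 1 or 3 or 600 mOsm library 1 or 3, at 0.12 to 0.18. Col20a1, with 6 to 17 counts per library, passed no test. Col9a3, a cartilage FACIT chain, was not tested, with 2, 1 and 4 counts in iso-osmolar, 17, 9 and 24 at 500 mOsm and 9, 6 and 7 at 600 mOsm libraries.

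Col8a1, a short chain of the hexagonal networks of vessel walls and the cornea, read 4.68, 4.56 and 4.84 FPKM in iso-osmolar, 4.86, 3.97 and 3.74 at 500 mOsm and 4.70, 5.94 and 4.97 at 600 mOsm libraries. The groups overlapped. The log2 fold change of 600 against 500 mOsm, 0.33 ± 0.10 (adjusted p = 0.0331), lost its call with limma on log2(FPKM + 1) (adjusted p = 0.0793) and without 500 mOsm library 2 or 3 or 600 mOsm library 2 or 3, at 0.24 to 0.35. Its partner chain Col8a2 had 11 to 35 counts per library, and its fold change at 600 mOsm of 0.86 ± 0.31 had an adjusted p of 0.0501 (0.0468 with RLE size factors). Col18a1, the source of endostatin, had 1.97 ± 0.32 FPKM (SD, n = 3) in iso-osmolar, 2.52 ± 0.29 at 500 mOsm and 2.32 ± 0.20 at 600 mOsm cells. It passed no test, although DESeq2 gave an adjusted p of 0.0462 at 500 mOsm. The GC content and length correction gave it calls at 500 mOsm (0.40, adjusted p = 0.00300) and 600 mOsm (0.38, adjusted p = 0.00426). At 500 mOsm it was also called with no filter on low counts (0.34) and without iso-osmolar library 2 (0.44) or 500 mOsm library 3 (0.45).

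Among the transmembrane collagens, Col23a1 showed the largest fold change of the 24 members tested. It passed the low count filter through its stressed libraries, since its iso-osmolar counts were too low to meet it. A member this scarce in iso-osmolar cells enters the test only when it is higher under stress. As with Col2a1, the library values of Col23a1 are given by a choice made after they were seen. Col23a1 (chr11:51289920-51583918) had 3, 5 and 4 counts in iso-osmolar, 40, 33 and 29 at 500 mOsm and 36, 40 and 28 at 600 mOsm libraries. The stressed libraries lay far above the iso-osmolar ones. The log2 fold change was 2.93 ± 0.36 at 500 mOsm (adjusted p = 4.48e-05) and 3.06 ± 0.36 at 600 mOsm (adjusted p = 3.38e-05). On the log2(FPKM + 1) scale they were 0.26 and 0.29. Its level stayed low, at 0.257 ± 0.067 FPKM (SD, n = 3) at 600 mOsm. Col17a1, a hemidesmosome chain, had 28 to 43 counts per library and passed no test.

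The 20 members under the filter were each seen at least once. Their summed counts were 16, 17 and 20 in iso-osmolar, 74, 76 and 60 at 500 mOsm and 32, 47 and 50 at 600 mOsm libraries, without overlap between conditions. Beside those described, Col9a2 and Col14a1 had 0 to 11 counts per library, and Col9a1, Col10a1, Col13a1, Col15a1, Col19a1, Col22a1, Col25a1, Col26a1 and Col28a1 had at most 6 in any. The number of genes with at least 1 count moved the same way, highest at 500 mOsm. Some markers of other cell types were also highest there, at low levels, and others were not. The endothelial marker Pecam1 stood at 0.0535 to 0.132 FPKM in iso-osmolar, 3.05 to 3.52 at 500 mOsm and 0.373 to 0.697 at 600 mOsm libraries, while Cdh5 stayed at 0.114 to 0.204. The epithelial marker Cdh1 was at 0 to 0.00918, 0.749 to 0.835 and 0.0102 to 0.0340 FPKM, with Epcam at 0 to 0.0222. The summed level of the 4 endothelial markers was 0.202 to 0.246, 3.36 to 3.83 and 0.577 to 0.901 FPKM, and that of the 5 epithelial markers was 0.883 to 1.09, 1.81 to 2.46 and 0.982 to 1.41 FPKM. Leukocyte markers (3 of 4 listed were found) summed to 0.703 to 1.26, 1.64 to 1.84 and 1.12 to 1.59, osteoblast markers to at most 0.387 FPKM, and skeletal muscle markers to 0.0136 to 0.0622, 0.0510 to 0.0765 and 0.0373 to 0.130 FPKM. Their part in the low collagen counts was not tested. In bulk RNA, more cells of a type and more RNA per cell cannot be told apart.

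The start regions of members that moved in different ways are shown for Col1a2, which rose at 600 mOsm, and for Col3a1 and Col7a1, which fell at 500 mOsm. Each is the 150 bases before the RefSeq start on GRCm38.p6, plus strand, at chr6:4505468-4505617 for Col1a2, chr1:45311388-45311537 for Col3a1 and chr9:108953436-108953585 for Col7a1. Capitals mark CCAAT, the box bound by NF-Y, or GGGCGG, the GC box bound by Sp1 family factors.
Col1a2: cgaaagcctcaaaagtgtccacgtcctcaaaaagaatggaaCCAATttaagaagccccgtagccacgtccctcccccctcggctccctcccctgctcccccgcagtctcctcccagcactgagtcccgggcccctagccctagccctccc
Col3a1: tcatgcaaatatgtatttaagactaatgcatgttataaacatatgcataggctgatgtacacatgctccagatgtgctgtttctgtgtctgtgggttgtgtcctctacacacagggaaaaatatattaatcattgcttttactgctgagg
Col7a1: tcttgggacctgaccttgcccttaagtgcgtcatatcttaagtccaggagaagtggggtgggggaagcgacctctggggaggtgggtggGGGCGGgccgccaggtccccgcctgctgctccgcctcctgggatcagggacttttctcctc
The Col3a1 stretch holds neither motif. RefSeq windows were matched for 35 of the 44 members, with 38 windows in all. Over 250 bases before the start and on both strands, CCAAT was found in 34.2% of the members' windows and 33.9% of all windows, GGGCGG in 57.9% and 32.7%, and TGGAAA, the core of the tonicity element, in 10.5% and 18.6%. Each motif was counted on its own, and a match is a description of the letters alone.

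The genes that make and assemble collagen were read from a list of 52, of which 44 passed the filter. At 500 mOsm against iso-osmolar, 7 were up (13.2% of all genes tested were) and 1 was down (14.8%). At 600 mOsm against iso-osmolar, 17 were up (15.1% of all genes) and 4 down (20%). Between the stress levels, 4 were higher at 600 than at 500 mOsm (11.9% of all genes) and 3 lower (17.2%). The 7 up at 500 mOsm and the 4 higher between the stress levels were near the shares of all genes. Over the tested genes of this list the log2 fold changes had medians of 0.08, 0.16 and 0.05. With the GC content and length correction the higher genes numbered 16, 29 and 12. With 1 library left out, the 7 became 3 without iso-osmolar library 1 or 3, 4 without 500 mOsm library 1 and 2 without 500 mOsm library 2. The 1 lower became 0 without iso-osmolar library 1 or 2 or 500 mOsm library 1, and 2 without 600 mOsm library 3. At 600 mOsm the 17 became 10 without iso-osmolar library 3 and the 4 lower became 2 without 600 mOsm library 3. Between the stress levels the 4 higher became 2 without 500 mOsm library 1 or 600 mOsm library 1, and 9 without 600 mOsm library 2.

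Among the matrix proteins that bind fibrils, Sparc, a collagen chaperone outside the cell, rose from 599 to 603 FPKM in iso-osmolar libraries to 727 to 776 at 600 mOsm (log2 fold change 0.34 ± 0.04, adjusted p = 7.99e-05), and was higher there than at 500 mOsm (0.26 ± 0.04, adjusted p = 8.08e-04). Tnxb, which bridges fibrils, was higher at 500 mOsm (0.48 ± 0.11, adjusted p = 0.00558) and 600 mOsm (0.58 ± 0.11, adjusted p = 0.00154), and of the receptors Mrc2, which takes up collagen for breakdown, was higher at both 500 mOsm (0.20 ± 0.06, adjusted p = 0.0174) and 600 mOsm (0.35 ± 0.06, adjusted p = 4.21e-04). The Mrc2 call at 500 mOsm was lost without iso-osmolar library 1 or 3 or 500 mOsm library 1 or 2, at 0.16 to 0.18, and on the log2(FPKM + 1) scale the values of Tnxb were 0.19 and 0.23. Loxl4, a crosslinking enzyme, was higher at 500 mOsm (0.34 ± 0.05, adjusted p = 2.33e-04) and at 600 mOsm (0.20 ± 0.05, adjusted p = 0.00922), where without iso-osmolar library 3 the call was lost (0.16). Pcolce2, an enhancer of procollagen cleavage, was lower at 500 mOsm than in iso-osmolar cells (-0.18 ± 0.05, adjusted p = 0.0216) and higher at 600 than at 500 mOsm (0.19 ± 0.05, adjusted p = 0.0174). The first of these calls was lost without iso-osmolar library 1 (-0.17) or 2 (-0.17) or 500 mOsm library 1 (-0.13) and with the GC content and length correction (-0.12, adjusted p = 0.148), and the second without 500 mOsm library 1 (0.14) or 600 mOsm library 1 (0.19).

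Of chain modification, Colgalt1, which glycosylates hydroxylysine, was higher at 600 mOsm than in iso-osmolar cells (0.33 ± 0.04, adjusted p = 1.15e-04) and than at 500 mOsm (0.19 ± 0.04, adjusted p = 0.00595). At 600 mOsm against iso-osmolar, 6 of the 14 hydroxylation genes tested were higher with it included (15.1% of all genes were). In this group 1 was lower (20% of all genes). Most of the 14 were abundant (log2 CPM above 5), and at that abundance 20.6% of genes were higher. Plod2, a lysyl hydroxylase, was lower at 600 mOsm than in iso-osmolar cells (-0.31 ± 0.09, adjusted p = 0.0202) and than at 500 mOsm (-0.32 ± 0.09, adjusted p = 0.0197). In the group of 9 chaperone and export genes, 2 were higher and 2 lower at 600 mOsm against iso-osmolar, shares near those of all genes (15.1% and 20%). The higher ones were Serpinh1 (0.23 ± 0.04, adjusted p = 6.8e-04) and Fkbp10 (0.23 ± 0.05, adjusted p = 0.00488). The lower ones were Tmem131, needed for collagen export, which went from 14.1 to 15.2 FPKM in iso-osmolar to 8.21 to 9.84 at 600 mOsm libraries (-0.69 ± 0.06, adjusted p = 3.65e-06, or -0.45 with the GC content and length correction), and Creb3l1, a transcription factor of secretory and collagen genes, which went from 46.8 to 49.9 to 33.5 to 35.1 FPKM (-0.48 ± 0.06, adjusted p = 3.35e-05). Both were also lower at 600 than at 500 mOsm, by -0.61 ± 0.06 and -0.50 ± 0.06 (adjusted p = 1.17e-05 and 2.64e-05). The Plod2 call against iso-osmolar was lost without iso-osmolar library 1 (-0.25), 600 mOsm library 1 (-0.29) or 600 mOsm library 3 (-0.27), and that against 500 mOsm without 500 mOsm library 1 (-0.24), 600 mOsm library 1 (-0.30) or 600 mOsm library 3 (-0.28).

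**Figure D5:**
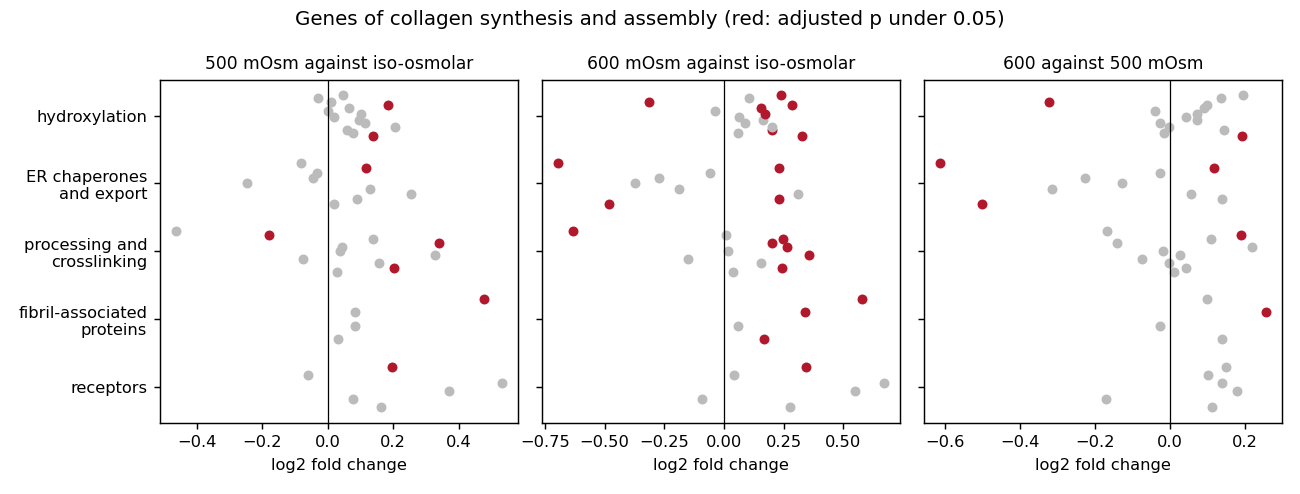
Log2 fold change of each of the 44 genes of collagen synthesis and assembly that were tested, by functional group and comparison, with red points past the adjusted threshold. At 600 mOsm against iso-osmolar, 17 red points lie to the right of 0 and 4 to the left. In the ER group, Serpinh1 and Fkbp10 lie to the right and Tmem131 and Creb3l1 to the left.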

How the data were processed

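Poly(A)-selected RNA of 9 MEF libraries was sequenced as paired reads and aligned to mm10. The submitters' processing notes name CASAVA 1.8 and STAR, and the counting tool and strand setting are not given in the sources used here. The authors deposited raw read counts per gene and FPKM, which equal the counts divided by the library total and the gene length. Their group means, fold changes and p-values were not used. The members and gene lists were chosen with earlier results of these data known.

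The deposited counts were tested with edgeR 4.0.16 (R 4.3.3; quasi-likelihood, TMM, filterByExpr, all 9 libraries in one fit), with adjustment over 13082 genes. FPKM served as the level per length. Shares of counts and chain ratios were compared by exact two-sided permutation tests. The script was tested on simulated data. Every tested member is described, with values per library for those of average log2 CPM of at least 1 called in any comparison and for Col1a1, Col1a2, Col3a1, Col4a1 and Col4a2, and of the synthesis list the 3 of smallest p in either direction are named for each comparison. Serpinh1 and Fkbp10 were named by a later choice. Alternatives were DESeq2 1.42.0, limma 3.58.1 on log2 FPKM, other scalings, filters and thresholds, a replicate block, each pair of groups fitted alone, each library left out and, added after seeing the data, GC content and length offsets (all 24 tested members had a value) and library totals without Gm26917. Counting error alone limits genes of few counts.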

Additional observations from a re-analysis of the deposited data

How the results depend on the processing

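With no filter on low counts, 6 collagen genes were higher at 500 mOsm (3 in the report), and with at least 10 counts in every library 1 was, as was 1 lower at 600 than at 500 mOsm (2 in the report). The GC content and length correction gave 6 higher at 500 mOsm, 2 lower at 600 mOsm and 1 lower at 600 than at 500 mOsm. When a log2 fold change of 1 or more in size was also asked for, 2 were lower at 500 mOsm, 2 higher and 1 lower at 600 mOsm, and 0 higher and 0 lower at 600 than at 500 mOsm. At an adjusted p under 0.01, 5 were higher and 1 lower between the stress levels. For the synthesis list, no filter gave 3 lower at 500 mOsm and 7 higher and 5 lower between the stress levels. The GC content and length correction gave 16 higher and 0 lower at 500 mOsm, 29 higher at 600 mOsm and 12 higher between the stress levels. The fold threshold left 0 in each direction of each comparison, and an adjusted p under 0.01 left 2 higher and 0 lower at 500 mOsm, 11 higher and 2 lower at 600 mOsm, and 2 higher between the stress levels. The cause of these shifts was not tested, apart from the stricter thresholds, which can only remove calls.

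Leaving out 1 library gave 2 to 5 collagen genes higher and 5 to 6 lower at 500 mOsm, 9 to 11 higher and 4 to 6 lower at 600 mOsm, and 6 to 10 higher and 2 to 3 lower between the stress levels. The 5 came without iso-osmolar library 2, and the 6 higher between the stress levels without 500 mOsm library 3, 600 mOsm library 1 or 600 mOsm library 3. For the synthesis list the ranges were 2 to 8 higher and 0 to 2 lower at 500 mOsm, 10 to 20 higher and 2 to 5 lower at 600 mOsm, where the 10 came without iso-osmolar library 3 and the 2 without 600 mOsm library 3, and 2 to 9 higher and 2 to 4 lower between the stress levels. The difference in the share of counts on collagens ran from -0.107 to -0.0406, 0.243 to 0.327 and 0.316 to 0.400 percentage points.

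Replicate numbers did not pair the libraries: deviations from the group means of libraries with the same number correlated at a mean r of -0.232 (-0.655 to 0.574 over 9 pairs) and those with different numbers at 0.118 (18 pairs). Fitting that number as a replicate block left 5 collagen genes higher between the stress levels (10 in the report), and the synthesis list had 3 higher and 0 lower at 500 mOsm. Under the block 64 of 72 collagen fold changes kept direction and call, as did 66 under DESeq2 and 70 under RLE size factors.

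Signs that turned under a setting belonged to fold changes that were not called. The GC content and length correction gave Col1a1 0.0305, Col5a2 0.0214 and Col1a2 0.00124 at 500 mOsm, and Col7a1 0.0431, Col5a1 0.139 and Col11a2 0.135 at 600 mOsm. Col1a1 at 500 mOsm was 2.00e-04 with at least 10 counts in every library. Col11a2 at 600 mOsm was 0.0143 with the block and 0.00427 with limma on log2(FPKM + 0.1). Col17a1 at 600 mOsm was -0.00485 by library size alone and -3.82e-04 with limma on log2(FPKM + 1). Pcolce2 at 600 mOsm was -0.0116 by library size alone and -0.0109 and -0.0114 with limma at pseudocounts of 1 and 0.1, and Plod2 at 500 mOsm was -0.00731 with no filter. Without 1 library, ranges crossed 0 at 500 mOsm for Col1a1 (-0.0601 to 0.0275), Col8a2 (-0.354 to 0.194), Col11a1 (-0.36 to 0.67), Col20a1 (-0.775 to 0.339), Creb3l1 (-0.0142 to 0.0508) and Plod2 (-0.0767 to 0.0805). At 600 mOsm they did so for Col5a1 (-0.174 to 0.0144), Col11a1 (-0.994 to 0.0401), Col11a2 (-0.21 to 0.17), Col17a1 (-0.0762 to 0.143), Col20a1 (-0.0016 to 0.689) and Pcolce2 (-0.0147 to 0.0197), and between the stress levels for Col5a3 (-0.119 to 0.349) and Col23a1 (-0.0361 to 0.313).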

Other observations

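Some members, scarce or abundant, lie close behind an expressed gene on the same strand. Col7a1 lies 3.95 kb behind Uqcrc1, which averaged 439 CPM in iso-osmolar, 433 at 500 mOsm and 512 at 600 mOsm libraries. The nearest tested gene ending upstream of Col23a1 is Clk4, at 8.15 kb and 14.1 CPM in iso-osmolar, 19.9 at 500 mOsm and 14.1 at 600 mOsm libraries on average. For Col2a1 it is Senp1, at 34.0 kb and 85.0, 83.6 and 74.5 CPM. Col20a1 lies 4.01 kb behind Arfgap1 and Col11a2 lies 1.04 kb behind Rxrb, and neither passed a test. The deposited counts are sums over whole genes and were not split by exon here.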
